A study of Mus musculus with 24 samples.

Results

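The genes described here were 10 genes of the pericentral liver, the zone around the central vein, that depend on WNT signaling. They were listed by symbol, with the cytochrome P450 genes left out, and the list was drawn up with earlier results of these data known. Of the 41388 genes in the count tables, 9 members were found by symbol, and Rhbg was found by position, because the reference paired no deposited identifier with that symbol. All 10 passed the limit on low counts, which 13052 genes passed. The members fell into 5 enzymes and transporters of pericentral hepatocytes (Glul, Oat, Slc1a2, Slc1a4 and Rhbg) and 5 WNT target and feedback genes (Lgr5, Axin2, Tbx3, Rnf43 and Znrf3).

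Hepatocytes differ along the path of blood from the portal vein to the central vein. Endothelial cells of the central vein secrete WNT ligands and R-spondins, which keep beta-catenin stable in the neighboring hepatocytes, where it acts with TCF/LEF factors on target genes. These pericentral hepatocytes take up glutamate and ammonia and make glutamine, whereas the urea cycle and gluconeogenesis are stronger in periportal hepatocytes.

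Liver RNA was sequenced from male WT and Adn-Lpin1-/- mice in a design of 2 genotypes and 2 diets, with single-mouse libraries of 5 mice in each group. Adn-Lpin1-/- mice carried floxed Lpin1 alleles and Cre recombinase driven by the adiponectin promoter, and so lacked lipin 1, a phosphatidic acid phosphatase, in adipocytes. The WT mice were littermates that also carried 2 floxed Lpin1 alleles but no Cre, so every group carried the floxed allele and the effect of Cre itself cannot be told apart from that of the deletion. Both genotypes were on a C57BL/6J background. The diets were a low-fat diet (LFD) with 10% and a high-fat diet (HFD) with 60% of energy from fat, begun at 8 weeks of age, and the mice were fasted for 4 hours. The sample labels give 16 weeks of feeding, whereas the methods give 5 weeks. A further library of each group held RNA pooled from its 5 mice and was left out of the tests. The comparisons asked how each gene differed by genotype on each diet and by diet in each genotype.

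Total counts ranged from 36260187 to 81072794 per mouse. Every Adn-Lpin1-/- LFD total (51095146 or more) was above every WT LFD total (45999456 or less), so depth and genotype cannot be told apart on the LFD. Every WT HFD total (54036184 or more) was also above every WT LFD total, so depth and diet cannot be told apart in WT. The values below are in CPM, counts scaled to a common library size. Lpin1 itself was between 119.7 and 1195 CPM in every liver and overlapped between the genotypes on both diets, and it does not check the labels because it was deleted only in adipocytes. The 7 hepatocyte markers found summed to 77401 to 126372 CPM in each library, so the defining transcripts of hepatocytes were present, and Adipoq, a defining adipocyte gene, was at 0 to 4.32 CPM over all mice. In bulk tissue, fewer pericentral cells and less RNA per cell cannot be told apart.

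Promoter sequences are shown for Slc1a2, called lower in Adn-Lpin1-/- livers on both diets, and Oat, called lower on the HFD only. Those of Glul and Axin2, which were not called, are added so that called members can be read beside uncalled ones. They were taken from RefSeq on GRCm38.p6, which held promoters of 6 of the 10 members, and give the 250 bases before the start, read 5′ to 3′ on the strand of the gene. Capitals mark 7-base words, searched on both strands, of CTTTG followed by 2 bases that are each A or T, which match the core of the TCF/LEF motif. The Slc1a2 sequence lies on the + strand at chr2:102706188-102706437, inside the deposited gene, which begins at 102658659. The Oat sequence lies on the - strand at chr7:132576399-132576648, and the Glul and Axin2 sequences on the + strand at chr1:153899679-153899928 and chr11:108920099-108920348. The Glul sequence ends before the deposited gene, which begins at 153899944. The first bases after this RefSeq start of Glul were in no GENCODE transcript, unlike those of the others shown.
Slc1a2: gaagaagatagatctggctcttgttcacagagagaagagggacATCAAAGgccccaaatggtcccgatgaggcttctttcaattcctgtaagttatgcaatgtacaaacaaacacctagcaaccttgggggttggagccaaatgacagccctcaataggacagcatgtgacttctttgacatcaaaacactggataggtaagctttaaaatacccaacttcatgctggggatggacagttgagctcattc
Oat: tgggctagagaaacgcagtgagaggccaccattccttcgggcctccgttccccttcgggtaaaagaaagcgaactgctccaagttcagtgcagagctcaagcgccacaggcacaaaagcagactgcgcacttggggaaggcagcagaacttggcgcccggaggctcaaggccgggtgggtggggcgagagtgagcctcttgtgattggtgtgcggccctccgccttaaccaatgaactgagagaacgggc
Glul: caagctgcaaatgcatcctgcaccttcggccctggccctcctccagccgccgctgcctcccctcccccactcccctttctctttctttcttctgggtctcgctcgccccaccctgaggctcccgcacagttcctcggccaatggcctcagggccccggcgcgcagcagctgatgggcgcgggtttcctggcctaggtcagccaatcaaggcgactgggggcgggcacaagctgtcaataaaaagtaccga
Axin2: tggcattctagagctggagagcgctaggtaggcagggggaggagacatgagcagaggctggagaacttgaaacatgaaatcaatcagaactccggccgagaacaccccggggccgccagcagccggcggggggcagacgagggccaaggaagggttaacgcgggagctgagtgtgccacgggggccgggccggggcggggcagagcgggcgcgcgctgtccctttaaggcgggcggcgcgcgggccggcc

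Of the 7 promoters of members, counting both of Rnf43, 1 held such a word, that of Slc1a2, as ATCAAAG with its first base 207 bases before the start. Among all 32851 promoters in the table, 4874 held at least 1 word (14.8%), so 1 of 7 was close to the share of all promoters. The absence of a word says only that these letters were not in this window of 250 bases.

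Glul and Oat were by far the most abundant of the 10 genes per length. As RPKM, the CPM per kilobase of exon, the mean over 20 mice was 366 ± 44.0 (SD) for Glul, which encodes glutamine synthetase, and 358 ± 80.8 for Oat, ornithine aminotransferase of mitochondria. The ranges of these 2 genes overlapped, and both were above every other member in every mouse. Slc1a2 followed at a mean of 17.5 RPKM, Tbx3 at 9.93, Rhbg at 6.23 and Rnf43 at 4.89, each overlapping the next in range. Znrf3 at 1.96 RPKM did not reach Rnf43 in any mouse, and Axin2 at 1.67, Slc1a4 at 1.07 and Lgr5 at 0.452 were the lowest members and overlapped one another in this order. Lgr5 still had 112 to 520 counts per mouse. A few exon bases of Glul, Slc1a2, Axin2 and Tbx3 (115 to 209 per gene) overlap genes on the opposite strand, whose means were 2.49 CPM or less, and the counting is not stated to use strand.

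**Figure D1:**
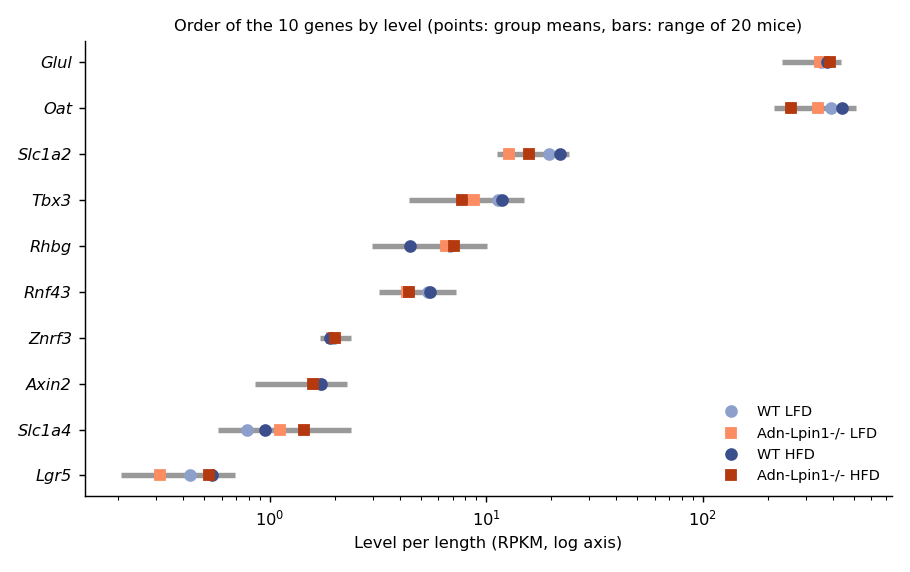
Level of each member per length in RPKM on a log axis, with points for the 4 group means (n = 5 mice each) and gray bars for the lowest to the highest of 20 mice. Glul and Oat lie at means of 366 and 358 RPKM, apart from the other 8 members, and Lgr5 is the lowest at 0.452 RPKM.

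The spread between mice of 1 group also differed among the members. Tbx3 had a within-group SD of 0.50 on the log2 scale, which was larger than that of 96.6% of all tested genes, and Lgr5 had 0.37. Znrf3 was the steadiest at 0.16, against a median of 0.18 over all tested genes, and Oat had 0.18, Glul 0.20 and Slc1a2 0.21. A difference of a given size was therefore harder to call for Tbx3 and Lgr5 than for Glul or Oat.

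**Figure D2:**
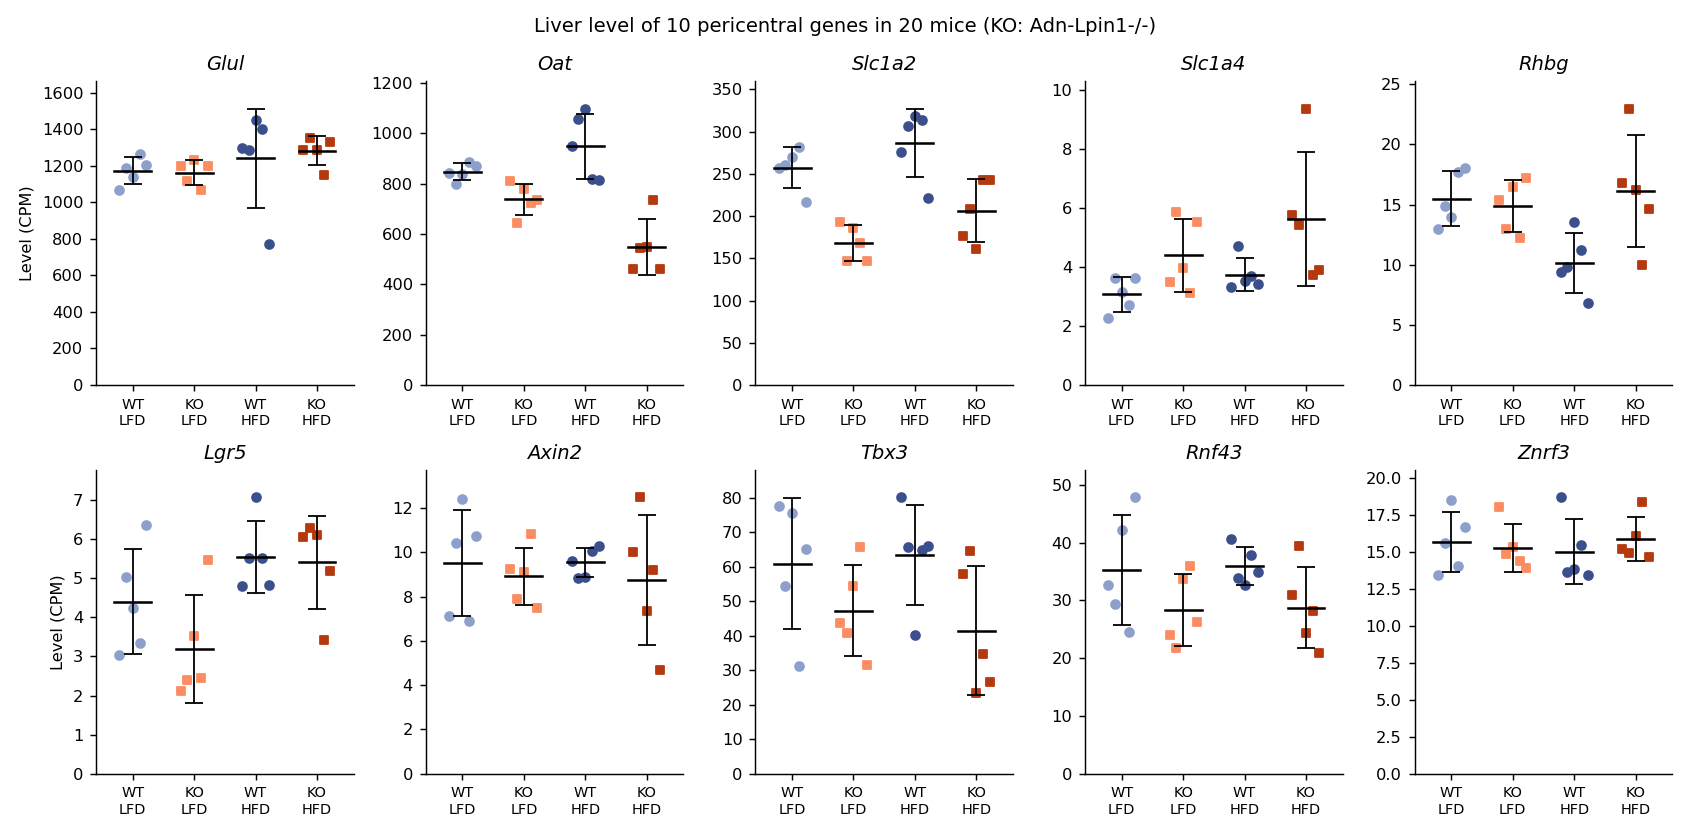
Level of each member in CPM for each of 20 mice, with a panel for each gene and its own axis from 0. Points are mice, long bars are means and whiskers are SD (n = 5). Slc1a2 of the 5 Adn-Lpin1-/- LFD mice lies at 147 to 193 CPM, below all WT LFD mice, and Oat of the 5 Adn-Lpin1-/- HFD mice lies at 460.4 to 735 CPM, below all WT HFD mice.

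By genotype on the LFD, Slc1a2 was the 1 member called, and it was lower in Adn-Lpin1-/- livers. The test was edgeR's quasi-likelihood test over 13052 genes, with a call at a Benjamini-Hochberg adjusted p at or below 0.05, and it called 14.4% of all tested genes in this comparison (8.11% lower and 6.27% higher). On the HFD, 3 members were called, Oat and Slc1a2 lower and Rhbg higher, where 18.6% of all tested genes were called (8.78% lower and 9.87% higher). The 5 WNT targets were called on neither diet. The 10 members had a median log2 fold change of -0.15 (LFD) and -0.08 (HFD), beside 0.01 and 0.00 over all tested genes. Among 10 members, 1 and 3 calls stand beside these shares of all genes and are no result about the members as a set.

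Slc1a2 (ENSMUSG00000005089, chromosome 2 of GRCm38, 102658659 to 102790784) encodes a high-affinity glutamate transporter that lies in pericentral hepatocytes in the liver. On the LFD the 5 WT mice had 257, 260.4, 269, 282 and 217 CPM, and the 5 Adn-Lpin1-/- mice had 193, 147, 185, 168 and 147 CPM. The 2 genotypes did not overlap, and all 5 Adn-Lpin1-/- mice were the lower ones. Slc1a2 had a log2 fold change of -0.61 (SE 0.12, 95% interval -0.87 to -0.36, adjusted p = 0.00265 by edgeR), so the level fell by 34.7%, and the two-sided exact permutation test gave p = 0.00794, the smallest that 5 mice against 5 allow. The groups did not overlap in 10.1% of all tested genes in this comparison.

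On the HFD, Slc1a2 was at 276, 306, 318, 313 and 221 CPM in WT mice and at 177, 208, 161, 243 and 243 CPM in Adn-Lpin1-/- mice. The groups overlapped in part, because mouse 5 of WT HFD was below 2 of the Adn-Lpin1-/- mice. The log2 fold change was -0.47 (SE 0.12, 95% interval -0.73 to -0.22, adjusted p = 0.0123 by edgeR; exact permutation p = 0.0238), a decrease of 28.0%. Without that WT mouse it was -0.57 for Slc1a2 (adjusted p = 0.00437 by edgeR). The HFD effect of genotype on Slc1a2 minus the LFD effect was 0.14 (SE 0.17, adjusted p = 0.917 by edgeR), with an interval from -0.22 to 0.50.

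Oat (ENSMUSG00000030934, chromosome 7, 132557475 to 132576398) links ornithine to glutamate and proline in the mitochondria of pericentral hepatocytes. On the HFD the 5 WT mice had 951, 1057, 1098, 820.1 and 815 CPM, and the 5 Adn-Lpin1-/- mice had 462, 544, 549, 735 and 460.4 CPM. Again the 5 Adn-Lpin1-/- mice lay under the whole WT range, and a gap between the genotypes was seen in 11.4% of all tested genes on this diet. The log2 fold change of Oat was -0.79 (SE 0.11, 95% interval -1.02 to -0.55, adjusted p = 0.000176 by edgeR; exact permutation p = 0.00794), so the level fell by 42.0%. This was the largest change by genotype among the 10 members.

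On the LFD, Oat was at 844, 799, 839.95, 888 and 872 CPM in WT mice and at 810.0, 644, 778, 724 and 734 CPM in Adn-Lpin1-/- mice. Only the highest Adn-Lpin1-/- mouse reached into the WT range. The log2 fold change was -0.20 (SE 0.11, 95% interval -0.44 to 0.03) and was not called (adjusted p = 0.251 by edgeR), while the exact permutation test of this gene alone gave p = 0.0159. The HFD effect of genotype on Oat minus the LFD effect was -0.58 (SE 0.16) and was not called (adjusted p = 0.378 by edgeR). By edgeR, no gene was called for a genotype effect that differed between the diets (0% of tested genes, with a smallest adjusted p of 0.287 and 938 genes at an unadjusted p under 0.05). DESeq2 called 30 genes and voom with quality weights 0, and neither called a member.

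Rhbg (ENSMUSG00000001417, chromosome 3, 88242874 to 88287210) encodes an ammonia transporter of the Rhesus family in the membrane of pericentral hepatocytes. The deposited feature had 12 exon parts, of which 10 were identical to the 10 exons of Rhbg in GENCODE, and the other parts (334 of 2271 bases) lay at exons of neighboring genes, of which Tsacc had a mean of 1.03 CPM. On the HFD, Rhbg was at 9.39, 9.77, 13.5, 11.2 and 6.78 CPM in WT mice and at 16.8, 22.98, 16.2, 9.99 and 14.7 CPM in Adn-Lpin1-/- mice. Of the 5 Adn-Lpin1-/- mice, 4 were above all WT mice and mouse 4 was within their range. Rhbg had a log2 fold change of 0.67 (SE 0.18, 95% interval 0.29 to 1.06, adjusted p = 0.0169 by edgeR; exact permutation p = 0.0317), or 1.59-fold. The call was lost for Rhbg without mouse 5 of WT HFD (log2 fold change 0.54, adjusted p = 0.0501 by edgeR), with mouse 2 of Adn-Lpin1-/- HFD left out (0.51, adjusted p = 0.0642) and in a fit of the 2 groups alone (0.67, adjusted p = 0.0531).

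On the LFD, Rhbg did not separate by genotype, with 12.97 to 18.05 CPM in WT and 12.2 to 17.2 CPM in Adn-Lpin1-/- mice (log2 fold change -0.06, 95% interval -0.45 to 0.32, adjusted p = 0.863 by edgeR). The WT HFD mean for Rhbg (10.1 ± 2.48 CPM, SD, n = 5) was the lowest of the 4 groups, beside 15.5 ± 2.28 for WT LFD, 14.9 ± 2.17 for Adn-Lpin1-/- LFD and 16.1 ± 4.67 for Adn-Lpin1-/- HFD. The HFD effect of genotype on Rhbg minus the LFD effect was 0.73 (SE 0.26, adjusted p = 0.581 by edgeR). It was thus not shown that the genotype effect on Rhbg differed between the diets.

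Glul (ENSMUSG00000026473, chromosome 1, 153899944 to 153909723), whose product joins ammonia to glutamate, is restricted to the hepatocytes next to the central vein. On the LFD it was at 1068, 1189, 1138, 1265 and 1203 CPM in WT mice and at 1200.4, 1116, 1231, 1069 and 1198 CPM in Adn-Lpin1-/- mice. On the HFD it was at 1295, 1289, 1448, 1403 and 773 CPM in WT mice and at 1286, 1352, 1287, 1149.7 and 1333 CPM in Adn-Lpin1-/- mice. The genotypes overlapped on both diets, and mouse 5 of WT HFD stood below all other 19 mice. By genotype, Glul had a log2 fold change of -0.01 with LFD (95% interval -0.26 to 0.23, adjusted p = 0.964 by edgeR) and of 0.05 with HFD (95% interval -0.20 to 0.29, adjusted p = 0.816). Without mouse 5 of WT HFD, the change on the HFD was -0.10 for Glul (adjusted p = 0.387 by edgeR).

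Slc1a4 (ENSMUSG00000020142, chromosome 11, 20302180 to 20332713) encodes a transporter of neutral amino acids such as alanine and serine. It was at 2.26 to 3.64 CPM in WT LFD, 3.11 to 5.88 in Adn-Lpin1-/- LFD, 3.34 to 4.71 in WT HFD and 3.73 to 9.37 in Adn-Lpin1-/- HFD. The groups overlapped on both diets. By genotype, Slc1a4 had a log2 fold change of 0.51 with LFD (95% interval 0.03 to 1.00, adjusted p = 0.149 by edgeR) and of 0.59 with HFD (95% interval 0.12 to 1.07, adjusted p = 0.0732), and neither was called. On the HFD, Slc1a4 passed the threshold with all mice by DESeq2 (adjusted p = 0.0488) and by voom with the pools (adjusted p = 0.00398). By edgeR it did so without mouse 4 of Adn-Lpin1-/- HFD (log2 fold change 0.70, adjusted p = 0.0353) or mouse 5 (0.70, adjusted p = 0.0411), and without mouse 3, the highest, it was 0.33 (adjusted p = 0.273).

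**Figure D3:**
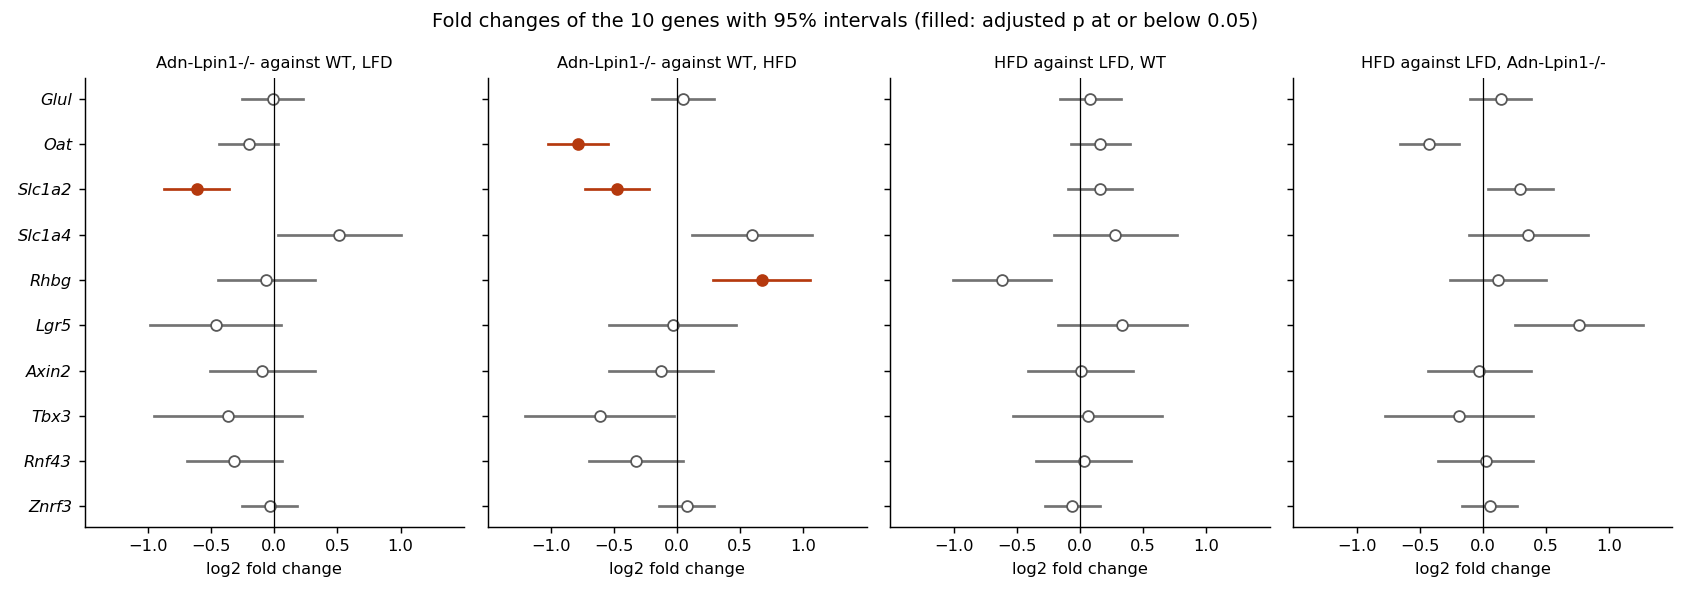
Log2 fold change of each member with its 95% interval in 4 comparisons, 2 by genotype and 2 by diet, from edgeR's fit of all 20 mice. Filled points passed an adjusted p of 0.05. They are Slc1a2 on the LFD (-0.61), and Oat (-0.79), Slc1a2 (-0.47) and Rhbg (0.67) on the HFD, while the 5 WNT targets have open points throughout.

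None of the 5 WNT targets was called by genotype, with adjusted p between 0.228 and 0.856 on the LFD and between 0.134 and 0.935 on the HFD (edgeR's test). An unadjusted p under 0.05 was reached by 0 of the 5 on the LFD and by 1 on the HFD, Tbx3. DESeq2 and voom with quality weights called 0 of them on either diet, while voom with the pools as sixth libraries called Lgr5 on the LFD, and Tbx3 and Rnf43 on the HFD. The pools repeat RNA of mice that were already counted. All 5 log2 fold changes were below 0 on the LFD, with a median of -0.32, and 4 of 5 were below 0 on the HFD, with a median of -0.13. The medians over all tested genes were 0.01 and 0.00. On the LFD, the values of Axin2 and Znrf3 changed sign with 1 mouse left out, and Axin2, Tbx3 and Rnf43 varied together over mice. The signs are therefore no result about the 5 genes as a set.

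Axin2 (ENSMUSG00000000142, chromosome 11, 108920349 to 108950783) encodes a scaffold of the beta-catenin destruction complex and is a widely used readout of WNT signaling. Among LFD mice, its mean was 9.51 ± 2.40 CPM (SD, n = 5) for WT and 8.91 ± 1.30 for Adn-Lpin1-/-, and among HFD mice 9.54 ± 0.659 and 8.75 ± 2.92. By genotype, it had a log2 fold change of -0.09 with LFD (95% interval -0.51 to 0.32) and of -0.13 with HFD (95% interval -0.54 to 0.28), so decreases of up to 0.5 log2 units lay within the intervals. Among Adn-Lpin1-/- HFD mice Axin2 ranged from 4.69 to 12.5 CPM, wider than in any other group.

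Lgr5 (ENSMUSG00000020140, chromosome 10, 115450311 to 115587780) encodes a receptor for R-spondins that strengthens WNT signaling. On the LFD it was at 3.04, 5.04, 4.23, 3.34 and 6.36 CPM in WT mice and at 2.12, 2.39, 3.52, 2.44 and 5.46 CPM in Adn-Lpin1-/- mice. Of the Adn-Lpin1-/- mice, 3 were below every WT mouse, whereas mouse 5 was above 4 of the WT mice. Lgr5 had a log2 fold change of -0.46 (SE 0.25, adjusted p = 0.228 by edgeR), and without mouse 5 of Adn-Lpin1-/- LFD it was -0.75 (adjusted p = 0.0390 by edgeR). On the HFD, Lgr5 was at 4.81 to 7.07 CPM in WT and at 3.42 to 6.29 CPM in Adn-Lpin1-/- mice (log2 fold change -0.04, adjusted p = 0.935).

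Tbx3 (ENSMUSG00000018604, chromosome 5, 119670669 to 119684724) encodes a T-box transcription factor. It ranged from 31.3 to 77.8 CPM in WT LFD, 31.5 to 65.7 in Adn-Lpin1-/- LFD, 40.2 to 80.2 in WT HFD and 23.5 to 64.7 in Adn-Lpin1-/- HFD. By genotype, Tbx3 had a log2 fold change of -0.37 with LFD (SE 0.28, adjusted p = 0.415 by edgeR) and of -0.61 with HFD (SE 0.28, adjusted p = 0.134). On the HFD, 3 of the 5 Adn-Lpin1-/- mice were below all WT mice, and the difference was not called.

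Rnf43 (ENSMUSG00000034177, chromosome 11, 87662722 to 87735539) and Znrf3 (ENSMUSG00000041961, chromosome 11, 5276324 to 5444847) encode related ubiquitin ligases that remove WNT receptors from the cell surface. Rnf43 had a log2 fold change of -0.32 by genotype on either diet (adjusted p = 0.260 on the LFD and 0.216 on the HFD by edgeR), with 24.5 to 47.8 CPM in WT LFD and 21.8 to 35.9 in Adn-Lpin1-/- LFD. Znrf3, the steadiest member, stayed between 13.5 and 18.7 CPM in all 20 mice, and it had a log2 fold change of -0.04 with LFD (95% interval -0.26 to 0.18) and of 0.08 with HFD (95% interval -0.14 to 0.29). For Znrf3, changes of more than 0.3 log2 units by genotype lay outside both 95% intervals.

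By diet, no member was called in either genotype, where edgeR called 1.10% of all tested genes in WT and 2.46% in Adn-Lpin1-/- mice. With 1 mouse left out, these shares ranged from 0.421% to 2.21% and from 0.942% to 2.90%. These comparisons use the same groups as those by genotype and are not independent of them. In WT, 1 member, Rhbg, had an unadjusted p under 0.05 (log2 fold change HFD against LFD -0.61, SE 0.19, adjusted p = 0.113 by edgeR). DESeq2 called Rhbg there (adjusted p = 0.0407), voom called 0 members, and voom with the pools called Oat and Rhbg. In Adn-Lpin1-/- mice, Oat, Slc1a2 and Lgr5 had an unadjusted p under 0.05.

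Oat was 738 ± 63.0 CPM on the LFD and 550.1 ± 112 CPM on the HFD in Adn-Lpin1-/- livers and was not called (log2 fold change -0.42, SE 0.11, adjusted p = 0.0506 by edgeR). It was past the threshold by DESeq2 (adjusted p = 0.0100), by voom with quality weights (adjusted p = 0.0398) and without mouse 4 of Adn-Lpin1-/- HFD (log2 fold change -0.56, adjusted p = 0.00699 by edgeR). In WT livers Oat was 849 ± 34.1 CPM on the LFD and 948 ± 131 CPM on the HFD (log2 fold change 0.16, adjusted p = 0.520 by edgeR). The values of Oat by diet thus had opposite signs in the 2 genotypes, and the difference between them, given above, was not called.

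Lgr5 was 3.19 ± 1.38 CPM on the LFD and 5.41 ± 1.19 CPM on the HFD in Adn-Lpin1-/- mice (log2 fold change 0.76, SE 0.24, adjusted p = 0.112 by edgeR). Of the LFD mice, 3 were below every HFD mouse, and mouse 5 of the LFD was at 5.46 CPM. Without mouse 5 the log2 fold change of Lgr5 was 1.04 (adjusted p = 0.0153 by edgeR), and DESeq2 (adjusted p = 0.0472) and voom with quality weights (adjusted p = 0.0450) called it with all mice. Axin2, Tbx3, Rnf43 and Znrf3 had log2 fold changes by diet between -0.19 and 0.06 in the 2 genotypes, with adjusted p of 0.792 or more.

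The other genes of the WNT pathway were read from lists by role. Of 25 genes for WNT ligands, R-spondins and their secretion, 10 passed the limit on low counts and 0 were called by genotype on either diet (edgeR's test), with 2 at an unadjusted p under 0.05 on the LFD and 1 on the HFD. Wnt3 had no count in any mouse. Among the ligands known from the central vein, Wnt9b was 0.955 ± 0.378 CPM in WT LFD and 1.44 ± 0.337 in Adn-Lpin1-/- LFD, and 0.726 ± 0.253 and 1.20 ± 0.285 on the HFD (log2 fold change 0.72, adjusted p = 0.0813 by edgeR). Wnt2 was between 0.506 and 3.77 CPM in all mice, and Rspo3, the R-spondin of the central vein, was between 3.20 and 5.71 CPM (log2 fold change 0.20 on the LFD and 0.00 on the HFD, neither called). The median log2 fold change of the 10 tested genes was 0.32 on the LFD and 0.24 on the HFD.

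Endothelial markers were called higher in the same livers, and their part in these values was not tested. Called higher over all tested genes were 6.27% with LFD and 9.87% with HFD. Of the 8 endothelial markers, Adn-Lpin1-/- mice had 4 called higher with LFD and 5 with HFD, and none lower. Their summed level was 105 to 177 CPM in WT LFD and 160 to 285 in Adn-Lpin1-/- LFD, and 127 to 193 and 201 to 243 on the HFD. Of 8 genes for the endothelium of the central vein, a list that includes Wnt2, Wnt9b and Rspo3, Fabp4 was called higher on both diets and Thbd on the LFD. Macrophage markers were also called higher on the HFD (6 of 8, and 0 of 8 on the LFD), and the adipocyte marker Cfd on both diets. In bulk tissue, which cells made Fabp4 and Thbd was not tested.

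Among the receptors, Lgr4, a relative of Lgr5 that also binds R-spondins, was the 1 of 11 tested genes called by genotype. The shares called over all tested genes were 14.4% on the LFD and 18.6% on the HFD. Among LFD mice, Lgr4 was 50.5 ± 8.04 CPM for WT and 37.4 ± 3.70 for Adn-Lpin1-/- (log2 fold change -0.43, SE 0.10, adjusted p = 0.00764 by edgeR), with groups that overlapped. On the HFD it was 53.4 ± 3.20 in WT and 44.5 ± 4.99 CPM in Adn-Lpin1-/- mice (log2 fold change -0.26, adjusted p = 0.0735). Lrp5, Lrp6 and the Frizzled genes tested were not called on either diet.

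Of the 16 genes of beta-catenin, its destruction complex and Dishevelled, all were tested. On the LFD, Dvl2 and Csnk1e were called higher and Apc, Csnk1a1 and Tnks2 lower, and on the HFD, Csnk1e and Dvl3 higher and Csnk1a1 lower. Apc, the tumor suppressor that anchors the destruction complex, had LFD means of 35.5 CPM for WT and 28.5 for Adn-Lpin1-/- (log2 fold change -0.32, SE 0.07, adjusted p = 0.00777 by edgeR) and a gap between the groups. Beta-catenin itself, Ctnnb1, was not called (WT and Adn-Lpin1-/- means of 148 ± 10.9 and 137 ± 6.02 CPM for LFD, and of 154 ± 4.05 and 152 ± 9.50 CPM for HFD). Of 11 tested TCF/LEF factors and cofactors, 0 were called on the LFD (2 at an unadjusted p under 0.05), and Bcl9 and Tle2 were higher and Tle4 lower on the HFD.

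Of 7 tested inhibitors of the pathway, 1 was called higher and 1 lower on either diet. The shares of all tested genes called by genotype were 14.4% on the LFD and 18.6% on the HFD. Notum, a secreted enzyme that inactivates WNT ligands and is itself a WNT target, was at 28.2 to 35.4 CPM in WT LFD and at 16.7 to 25.5 CPM in Adn-Lpin1-/- LFD, without overlap (log2 fold change -0.63, SE 0.13, adjusted p = 0.00271 by edgeR; exact permutation p = 0.00794). On the HFD Notum was at 24.9 to 34.7 CPM in WT and at 23.7 to 36.3 CPM in Adn-Lpin1-/- mice (log2 fold change -0.05, adjusted p = 0.818). Dact2 was lower on the HFD (18.1 and 10.4 CPM on average in WT and Adn-Lpin1-/- mice, log2 fold change -0.81, adjusted p = 0.00106 by edgeR), and the low-level genes Dkk3 on the LFD (0.712 and 1.47 CPM on average) and Frzb on the HFD (0.790 and 1.74 CPM) were higher. Of 7 tested WNT targets other than the members, Notum on the LFD was the 1 call by genotype, which is close to the share of all tested genes. Nkd1, Sp5, Tcf7, Ccnd1, Myc and Lect2 were tested and not called, and Lef1 and Ascl2 were under the limit on low counts.

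**Figure D4:**
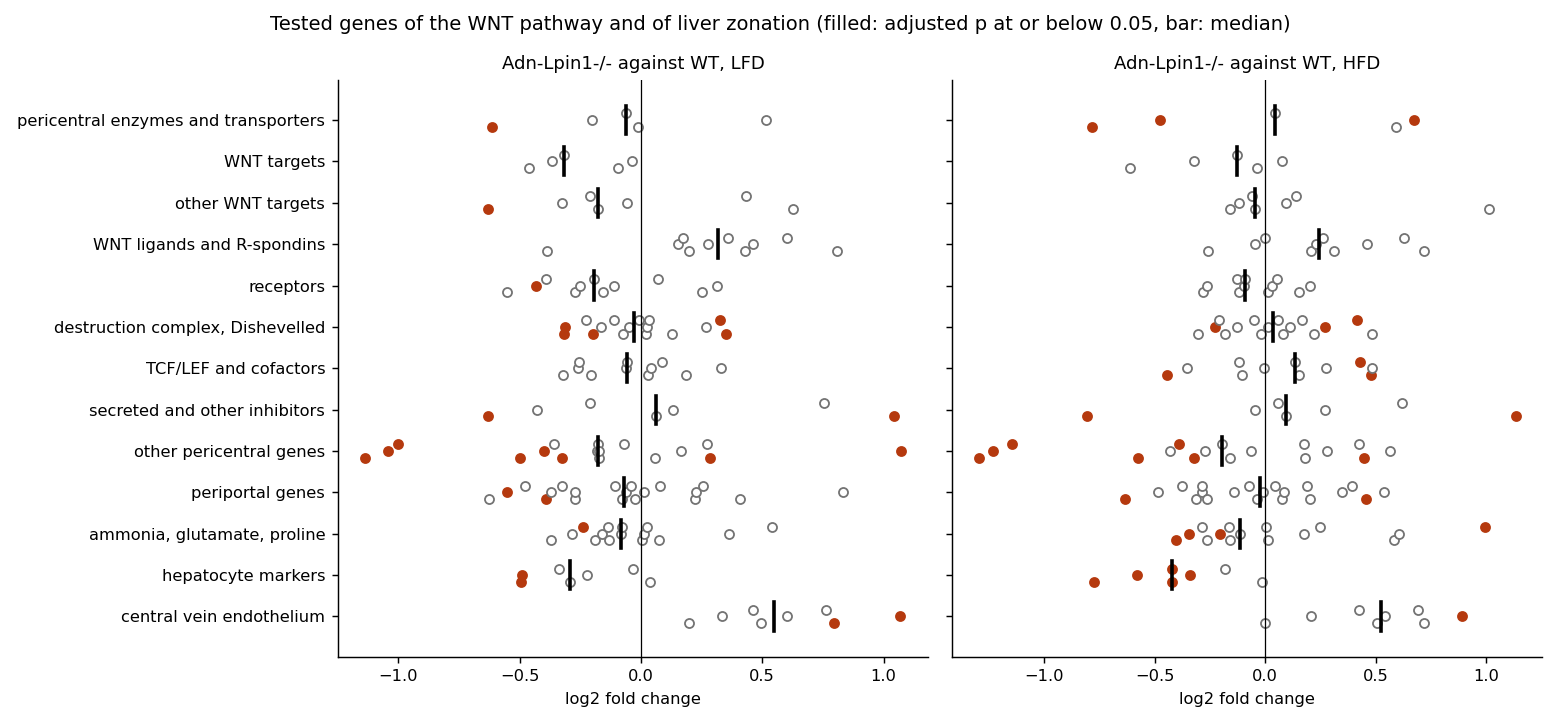
Log2 fold change by genotype, for each diet, of the tested genes of 13 lists, with a point for each gene, filled where edgeR called the gene, and a black bar for the median of the list. The 5 WNT targets have no filled point on either diet, the 17 other pericentral genes have 8 with LFD and 7 with HFD, and the medians of the hepatocyte markers lie at -0.29 and -0.42. Of all tested genes, 14.4% were called with LFD and 18.6% with HFD. Some genes stand in more than 1 list.

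Most calls among the other pericentral genes of hepatocytes were lower. Of 17 tested, 2 were called higher and 6 lower by genotype on the LFD, and 1 higher and 6 lower on the HFD, with medians of -0.18 and -0.20. Over all tested genes, 6.27% were called higher and 8.11% lower on the LFD, and 9.87% and 8.78% on the HFD. Lower values were not particular to this list, because the hepatocyte markers had medians of -0.29 and -0.42. Their part in these values was not tested. Gulo, which makes ascorbate in mice, was 675 ± 49.5 CPM in WT LFD and 479 ± 54.2 in Adn-Lpin1-/- LFD (log2 fold change -0.50, adjusted p = 0.00131 by edgeR) and was also lower on the HFD (log2 fold change -0.32, adjusted p = 0.0180). Avpr1a, a vasopressin receptor, fell by 1.14 and by 1.30 on the log2 scale, and Rgn, a calcium-binding lactonase, by 0.33 and by 0.39. Ang (log2 fold change -1.04 and -1.23) and Rnase4 (-1.001 and -1.14) were lower on both diets, but these ribonuclease genes overlap, so the split of reads between them is uncertain. Blvrb was higher on both diets, with log2 fold changes of 0.28 and 0.45. Slc22a3 was also called higher on the LFD, at 3.09 to 6.06 CPM in WT and 8.29 to 13.3 CPM in Adn-Lpin1-/- mice. It was not called by genotype on the HFD.

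Of 20 tested periportal genes, 2 were called on either diet, beside 14.4% and 18.6% of all tested genes, which is no result about the list. Pigr and Otc were lower on the LFD, and Gldc was higher and Cps1 lower on the HFD, with list medians of -0.07 and -0.02. Among 15 tested genes of ammonia, glutamine, glutamate and proline handling, which surround Glul, Oat and Slc1a2 in metabolism, Glud1 was lower on the LFD (log2 fold change -0.24, adjusted p = 0.0460 by edgeR). On the HFD the glutamine and amino acid transporters Slc38a3 (-0.40, adjusted p = 0.00730) and Slc38a4 (-0.34, adjusted p = 0.0138) and the proline-degrading Aldh4a1 (-0.21, adjusted p = 0.0196) were lower, and the low-level Pycr1, which makes proline, was higher.

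Hepatocyte markers were also called lower in the livers in which Oat and Slc1a2 were lower, and their part in those results was not tested. The shares of all tested genes called lower were 8.11% with LFD and 8.78% with HFD, and those called higher 6.27% and 9.87%. Of 7 hepatocyte markers tested, Apob and Serpina1a were called lower with LFD and 5 markers with HFD (Fgb, Alb, Apoa1, Apob and Serpina1a), none higher. Their summed level was 107897 to 117570 CPM in WT LFD and 77401 to 102625 CPM in Adn-Lpin1-/- LFD, which did not overlap, and 98369 to 126372 and 82427 to 106188 CPM on the HFD, which did. The medians of these markers, -0.29 and -0.42 on the log2 scale, lay beside -0.61 and -0.47 for Slc1a2 and -0.20 and -0.79 for Oat. Stellate cell markers were called higher for 5 of 8 with LFD and 4 of 8 with HFD, and macrophage markers for 0 of 8 (2 at an unadjusted p under 0.05) and 6 of 8. Glul, the member most restricted to the central vein, was not called on either diet. Whether its level followed the number of pericentral cells in these livers was not tested.

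Members also varied between mice of the same group. With group means removed, Glul and Rhbg rose and fell together over the 20 mice (Pearson r = 0.747, permutation p = 1e-05, the smallest that 100000 permutations within groups can give, adjusted p = 9e-05 over 9 relations of Glul; Spearman rho = 0.729, permutation p = 0.00013, adjusted p = 0.00117). Without the 2 mice farthest from the median of Glul, mice 5 and 3 of WT HFD, r was 0.736. No other member passed the adjustment with Glul. Slc1a2 had r = 0.468 with Glul (permutation p = 0.0807, adjusted p = 0.242; rho = 0.442, adjusted p = 0.201), which was 0.109 without these 2 mice. Lgr5 had r = 0.351 (permutation p = 0.0340, adjusted p = 0.153; rho = 0.373, adjusted p = 0.245). Axin2, Tbx3 and Rnf43 had r of -0.13, -0.21 and -0.03 with Glul. With 5 mice, no group was large enough for a correlation of its own.

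**Figure D5:**
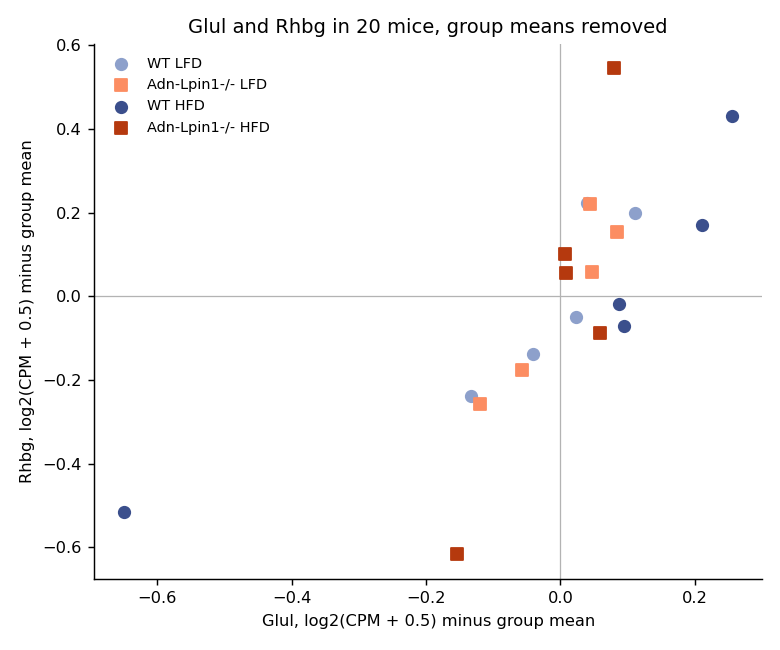
Rhbg against Glul in 20 mice, each as log2(CPM + 0.5) minus the mean of its group, with colors for the 4 groups (n = 5 each). Pearson r is 0.747, and 0.736 without mice 5 and 3 of WT HFD, of which mouse 5 is the point at the far left.

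As a description, the highest correlations among the other pairs of members were those of Tbx3 with Rnf43 (r = 0.783), Axin2 with Rnf43 (r = 0.777) and Axin2 with Tbx3 (r = 0.687), all WNT targets. Rhbg and Lgr5 had r = 0.654, and the lowest value was that of Slc1a2 with Slc1a4 (r = -0.626). Both values of a pair come from the same library, and these pairs were chosen after their values were seen. Over all 13052 genes, those most like Glul by this measure were Tlcd2 (r = 0.926), Slc16a11 (0.876), Nxpe2 (0.852), Mme (0.840) and 9030619P08Rik (0.836), and among those most like Axin2 were Gse1 (0.798), Nup214 (0.788), Rara (0.787) and Terf2ip (0.771).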

How the data were processed

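Liver RNA was sequenced from 20 single male mice and 4 pools, in 4 groups of 5 mice. The authors deposited raw counts per gene for each library, made by alignment with STAR 2.5.1a to the GRCm38 build of Ensembl and counting of uniquely aligned, unambiguous reads with featureCounts 1.4.6-p5; the strand setting is not given in the sources used here. The library kit is not stated to mark strand. From the deposited counts, CPM with TMM scaling and RPKM (CPM per kilobase of exon) were computed here, and not by the authors. Genes were named from GENCODE M21 (97.3% of 41388 identifiers matched), and Rhbg was matched by its exons. Of these, 355 ribosomal RNA genes were left out, and genes above 1 CPM in at least 4 of 20 libraries were tested.

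All 20 mice were fitted together, with 1 mean for each group, by edgeR 4.0.16 (quasi-likelihood test, R 4.3.3), with Benjamini-Hochberg adjustment over all 13052 tested genes and a threshold of 0.05. Exact two-sided permutation tests of log2(CPM + 0.5) used 252 arrangements. Correlations used deviations from group means with 100000 permutations within groups. Groups came from the sample labels, and the labels do not tell whether same-numbered mice were related. Total counts of 36260187 to 81072794 per mouse gave every member at least 88 counts. The edgeR procedure was tested on simulated data of 13052 genes for genotype on the LFD. It recovered 198 of 200 changed genes, with 6 false calls. Recovery at the effect size and spread of each member was not tested. The alternatives were DESeq2 1.42.0 and its size factors, voom with quality weights (limma 3.58.1) with and without the pools, other limits on low counts, fits of 2 groups, a replicate block, removal of the GC trend and each mouse left out.

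The members and gene lists were chosen with earlier results of these data known. The rule for named genes took all members, up to 6 called genes of each other list and comparison, and the 5 genes most correlated with Glul and with Axin2. Of these, 1 gene is not reported here. Uncalled genes of the lists (such as Wnt2, Wnt9b, Rspo3, Ctnnb1, Lrp5 and Nkd1) and Slc22a3 were named after their values were seen.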

Additional observations from a re-analysis of the deposited data

Results flagged for a closer look

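Of 40 sets of 5 mice (10 genes in 4 groups), 2 held a mouse far from the other 4 of its group by Dixon's test, where chance gives about 1 in 20. Glul in mouse 5 of WT HFD was at 773 CPM, and the nearest other mouse was at 1289 CPM. The same mouse was the lowest of its group for Oat, Slc1a2 and Rhbg. Slc1a4 in mouse 2 of WT HFD was at 4.71 CPM, above the next mouse at 3.70 CPM. Without that mouse, the log2 fold change of Slc1a4 by genotype on the HFD was 0.69 (adjusted p = 0.0659 from edgeR's test).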

How the results depend on the processing

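Slc1a2 on both diets and Oat on the HFD stayed called under every alternative run, with adjusted p of at most 0.0102, 0.0347 and 0.00577. Rhbg on the HFD, with log2 fold changes from 0.51 to 0.79 when 1 mouse was left out, also lost its call with the replicate block and the GC trend removed together (0.55, adjusted p = 0.0750). Of 1090 alternatives for single members, 1063 stayed on the same side of the threshold (most of them uncalled throughout), 4 lost a call, 23 gained one and 0 reversed a called value, while 54 uncalled values had another sign. Members called on the LFD numbered 2 with voom and the pools and 1 to 2 with 1 mouse left out, and on the HFD 6 and 2 to 4 (DESeq2 4, with Slc1a4 added). By diet in WT they numbered 1 with DESeq2 and 2 with voom and the pools (0 to 0 with 1 mouse left out). By diet in Adn-Lpin1-/- they numbered 1 with DESeq2 size factors, 2 with DESeq2, 2 with voom, 4 with voom and the pools, and 0 to 1 with 1 mouse left out. The difference of the genotype effect between diets gave 1 with voom and the pools (0 to 0 with 1 mouse left out), and could not be fitted with 2 groups. Voom with the pools called 4163 and 4740 genes by genotype on the LFD and HFD and 1938 and 2342 by diet in WT and Adn-Lpin1-/-. By diet, DESeq2 called 400 and 577 genes, voom 670 in WT, the 2-group fit 72 and 161, and the replicate block 90 and 214. With 1 mouse left out, all genes called numbered 1210 to 1931 by genotype on the LFD (lowest without mouse 3 of WT LFD), 1475 to 2756 on the HFD (lowest without mouse 2 of Adn-Lpin1-/- HFD), 55 to 289 by diet in WT and 123 to 378 by diet in Adn-Lpin1-/-. By diet, the count moved over 1.5 times without mouse 1, 2, 4 or 5 of WT LFD or 1, 2, 3 or 4 of WT HFD, and without mouse 2, 3 or 4 of Adn-Lpin1-/- LFD or 1, 2 or 5 of Adn-Lpin1-/- HFD. The cause was not tested.

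Same-numbered mice did not deviate together (r from -0.44 to 0.30 over 30 pairs, 7 above 0.1, and 5 of 20 mice closest to their own number), and the main fit used no block. These correlations cannot tell whether same-numbered mice were littermates or were processed together. With the replicate block, 1 member was called by genotype with LFD and 3 with HFD, and 0 by diet in WT or Adn-Lpin1-/- or for the difference between diets. Depth limits Lgr5 and Slc1a4 most, at 112 and 88 counts in their lowest mice.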

Other observations

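The pools, which repeat RNA of the same mice, lay within the range of the 5 mice for 35 of the 40 combinations of member and group. The 5 outside were Slc1a4 and Axin2 in WT LFD, Lgr5 and Axin2 in WT HFD, and Lgr5 in Adn-Lpin1-/- HFD, all members of low level.

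By diet, 0 of 20 tested periportal genes were called in WT (edgeR's test, 3 at an unadjusted p under 0.05), and 3 were higher and 1 lower on the HFD in Adn-Lpin1-/- mice, where 2.46% of all tested genes were called. Those higher were Pigr, which carries immunoglobulins across epithelia (log2 fold change 0.61, adjusted p = 0.00691, with LFD and HFD means of 943 and 1439 CPM), the protease gene Ctsc (0.58, adjusted p = 0.0216, 45.0 and 67.4 CPM) and Hsd17b6, a steroid dehydrogenase gene (1.33, adjusted p = 0.00337, 95.8 and 241 CPM). The 1 periportal gene called lower was G6pc, a gene of gluconeogenesis. In the other lists of the pathway and of zonation, 3 genes were called by diet. Dact2, an inhibitor of WNT signaling, was lower on the HFD than on the LFD in Adn-Lpin1-/- mice (log2 fold change -0.94, adjusted p = 0.00159), with 19.9 CPM on average on the LFD and 10.4 on the HFD. Dvl1, a Dishevelled gene, was lower on the HFD in WT mice (log2 fold change -0.42, adjusted p = 0.0136), and the pericentral Lhpp was lower on the HFD in Adn-Lpin1-/- mice (log2 fold change -0.53, adjusted p = 0.00413).

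Cholangiocyte markers were called in neither direction by genotype (0 of 5 tested, 3 at an unadjusted p under 0.05 on the LFD), and neither were those of mesothelium (0 of 2 tested, both at an unadjusted p under 0.05 on the LFD). Of 5 adipocyte markers only Cfd, which is also made by other cells, passed the limit on low counts, and it was higher on both diets. The summed level of the 5 ranged from 0.261 to 4.63 CPM in WT LFD, 1.80 to 36.1 in Adn-Lpin1-/- LFD, 1.42 to 16.6 in WT HFD and 3.96 to 183.5 in Adn-Lpin1-/- HFD.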
